A study of Brassica rapa with 5 samples.

Results

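Leaves of Brassica rapa plants given excess Zn were compared directly with leaves of plants deprived of Zn, the highest and lowest Zn supplies of the study, to ask which transcripts differ between the ends of the supply range. Brassica rapa is a Brassicaceae crop species, and all plants were of accession R-o-18. They grew in hydroponics for 14 days in a normal solution (2 µM Zn, 3 µM Fe, no Cd). They then spent 7 days at 50 µM Zn (Zn excess), at 0.005 µM Zn (Zn deficiency) or in the normal solution (normal supply), and the first pair of expanded leaves was taken. The Fe level of the Zn treatments is not stated apart from that of the normal solution. The comparison uses 2 of the 5 deposited samples, chosen by their titles, with normal supply as a dose reference. Fe deficiency (0.05 µM Fe) and Cd exposure (1 µM Cd) give further levels, which do not enter the difference between the Zn tables. The labels give 3 replicates per condition, with 3 plants in each, and the values of each table have the form of a mean of 3 libraries, so there is 1 value per gene and condition.

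Zn is an essential micronutrient that serves as a cofactor of many enzymes and as a structural part of many transcription factors. Plants raise the uptake of Zn when it is short, largely through plasma membrane transporters of the ZIP family, and bind or store it in vacuoles when it is in excess. Several transporters and chelators of Zn, such as nicotianamine, also handle Fe, so the balance of both metals is linked in plants. The tables identify genes only by a number. None of the 29183 identifiers matched a name in the reference table used here, so no gene below is given a role, and leaf marker genes could not be looked up.

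Transcripts were counted by digital gene expression, which sequences a short tag from each transcript. A library held 5776517 to 5825031 clean tags in Zn excess and 5575674 to 5908301 in Zn deficiency, totals recovered from the 2 deposited columns. Tags in genes made up 56.1% of the clean tags in Zn excess, 57.7% in Zn deficiency and 57.2% in normal supply. Levels are TPM, tags per 1000000 clean tags. Changes are log2(TPM + 1) in Zn excess minus the same in Zn deficiency, a scale that understates the change of low genes. The 10821 genes with a mean of at least 5 TPM over the 2 Zn tables were compared. In whole leaves, fewer cells of a type and less RNA per cell cannot be told apart.

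Most transcripts lay close together at the ends of the supply range. Of the 10821 genes, 8720 (80.6%) differed by less than 1.5-fold, and the median change was 0.056 (quartiles -0.23 and 0.33). By size, 204 genes were at least 2-fold higher in Zn excess (1.89% of genes compared), and the number lower by this measure was 372 (3.44%). At 4-fold, 33 were higher (0.305%) and 62 lower (0.573%). The smallest rise inside the 2-fold threshold was 1.0024 and the largest outside it 0.9987, and the corresponding falls were -1.0004 and -0.9993.

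A test was possible because the tag and TPM columns weight the 3 libraries of a table differently. Their difference, called the library contrast here, gives 1 estimate per gene and condition of the spread between libraries. With this spread averaged over the 5 conditions and moderated across genes with limma, 38 genes rose (0.351% of genes compared) and 33 fell (0.305%) in Zn excess against Zn deficiency at a Benjamini-Hochberg adjusted p under 0.05. With the spread of the 2 Zn conditions alone 34 rose and 57 fell, and among genes without fractional tags 35 rose and 19 fell. All 71 (0.656%) had changed at least 2-fold. The smallest of their changes was 1.52 in size, and 505 genes past the 2-fold threshold did not pass the test. The median standard error (SE) of a change was 0.35. The test takes the libraries of the 2 Zn tables as independent. Their contrasts correlated across genes (Spearman's rho 0.59), and the effect of this on the SEs and adjusted p-values was not tested. In a simulated comparison of 10714 genes, genes of equal level in a condition were given equal spread, taken from these data. There 89.1% of 101 genes changed 4-fold were recovered but 11.6% of 86 genes changed 2-fold, and 13 of the 113 calls were unchanged genes. Spread that differs between genes of equal level was not simulated, so these rates need not hold for the real genes. At an unadjusted p under 0.05, 509 genes were higher (4.7%) and 473 lower (4.37%), 9.07% of all genes together.

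**Figure D1:**
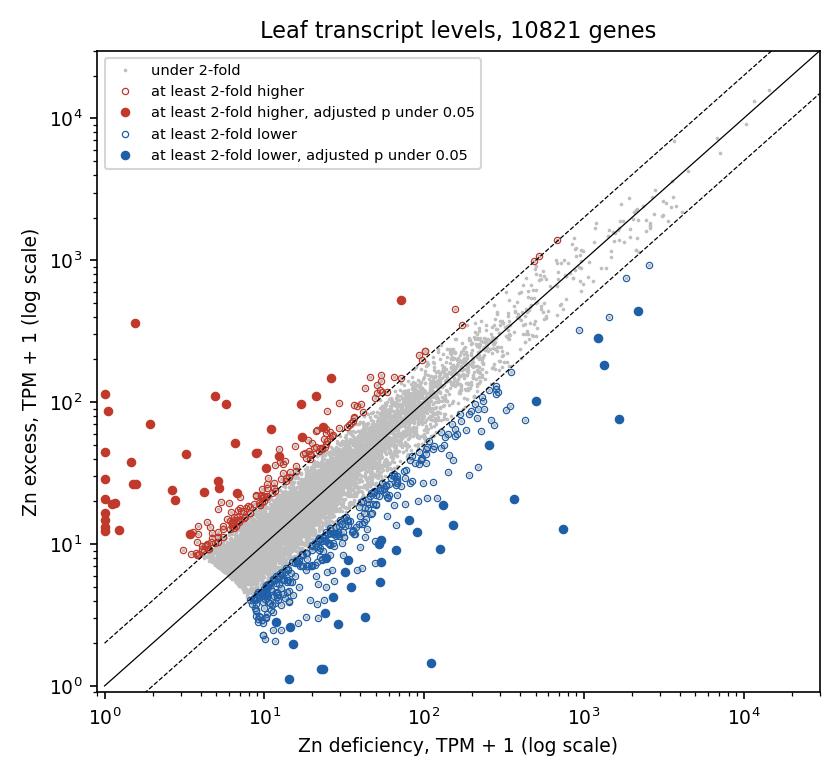
Level of each of the 10821 genes in Zn excess (vertical, TPM + 1, log scale) against Zn deficiency (horizontal, TPM + 1, log scale), 1 point per gene, with the line of equal levels and dashed lines at 2-fold. Red circles are the 204 genes at least 2-fold higher and blue circles the 372 at least 2-fold lower in Zn excess, filled where the adjusted p was under 0.05, and a column of filled points at the left edge marks genes at or near 0 in Zn deficiency.

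The largest rises in Zn excess were in genes that were almost silent in Zn deficiency. The 8 genes with the largest rises stood at 27.8 to 358 TPM in Zn excess and at 0 to 3.88 TPM in Zn deficiency, with log2 changes of 4.49 to 7.85, and all 8 passed the test (limma, adjusted p 1.25e-06 to 0.00055). They were chosen by the same difference that the test uses, so nothing is read from all 8 having passed. Their normal supply levels were 0 to 2.52 TPM, also low. Relative to Zn deficiency they could still differ, as for Bra005795 at 2.17 TPM against 0.556 TPM. Bra037111 was lower in normal supply (2.52 TPM against 3.88 TPM), Bra004609 was at 0 in both, and the remaining genes were higher in normal supply.

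Bra005795 was first among them, with 358 TPM in Zn excess and 0.556 TPM in Zn deficiency (log2 change 7.85, SE 0.52, adjusted p 2.15e-05). Normal supply gave 2.17 TPM, Fe deficiency 536 TPM and Cd exposure 3.93 TPM. It was thus high in Zn excess and Fe deficiency and low in the other 3 conditions. Part of its tag number was fractional, the form that tags matching several genes would take. Of its roughly 10 tags in Zn deficiency, at least 55.9% lay in 1 library.

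Bra004609 had 114 TPM in Zn excess, 1988 tags over the 3 libraries, and no tag in Zn deficiency. Set against a floor of 3 tags over the 3 libraries of Zn deficiency (0.174 TPM), it was at least 655-fold higher in Zn excess (adjusted p 8.49e-05). It had no tag in normal supply or Cd exposure either and stood at 98.8 TPM in Fe deficiency. A total of 8 genes compared were at 0 in Zn deficiency and at 11.3 to 114 TPM in Zn excess. The minimum mean of 5 TPM admits such a gene only through a high level in Zn excess, so the lower end of this range is set by the filter, and nothing is read from all 8 having passed the test. In normal supply 4 of the 8 were also at 0 and the highest was at 0.464 TPM. In Fe deficiency the 8 stood at 6.93 to 98.8 TPM. No gene compared was at 0 in Zn excess.

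The gene with the smallest p was Bra009099, at 86 TPM in Zn excess and 0.0572 TPM in Zn deficiency, the equivalent of about 1 tag over the 3 libraries (log2 change 6.36, SE 0.24, adjusted p 1.25e-06). That TPM could not be solved as whole tags in the 3 libraries, so no fold is given. Bra037112 differed less but stood well above 0 at both ends, at 95.5 TPM in Zn excess and 4.8 TPM in Zn deficiency (log2 change 4.06, SE 0.29, adjusted p 2.15e-05). It had 4.71 TPM in normal supply, 105 TPM in Fe deficiency and 4.92 TPM in Cd exposure. Both had fractional tags.

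A minority of the genes that rose were not high in Fe deficiency. Of the 38, 25 stood at least 2-fold above normal supply in Fe deficiency and none 2-fold below, where 3.61% of all genes compared were 2-fold higher. On the log2(TPM + 1) scale a gene under 1 TPM in normal supply cannot be 2-fold below it. The 25 had a median of 0.896 TPM in normal supply, so nothing is read from none being 2-fold below. Fe deficiency shares no library with the 2 Zn tables. The other 13 were within 2-fold of normal supply there, with log2 changes between the Zn tables of 1.72 to 5.18. Bra009221 was the largest of these. It had 68.7 TPM in Zn excess and 0.924 TPM in Zn deficiency (log2 change 5.18, SE 0.38, adjusted p 5.25e-05). Its level was 1.84 TPM in normal supply, 2.26 in Fe deficiency and 1.56 in Cd exposure, so that Zn excess stood apart from the other 4 conditions. Its 16 tags in Zn deficiency were 3, 7 and 6 in the 3 libraries and its 32 in normal supply were 12, 12 and 8, in rising order of library total. In Zn excess at least 38.8% of its tags lay in the library with the lowest total.

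The largest falls in Zn excess came from genes with high levels in Zn deficiency. The 8 genes with the largest falls stood at 0.316 to 75.1 TPM in Zn excess and 21.7 to 1665 TPM in Zn deficiency, with log2 changes of -6.24 to -3.76, and all 8 passed the test (adjusted p 0.000303 to 0.00621). As with the rises, the choice by size of change leaves nothing to read from all 8 having passed. Of the 8, 3 had no fractional tags. Bra027108 and Bra031470 are counted separately, but both had fractional tags and equal TPM to 3 digits in the other 4 tables (22.2 and 21.7 TPM in Zn deficiency). Whether they rest on the same tags was not tested. The 8 genes showed separate patterns once normal supply was placed beside them.

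Bra039194 had the largest fall, at 0.46 TPM in Zn excess and 109 TPM in Zn deficiency (log2 change -6.24, SE 0.70, adjusted p 0.00511). The high value rested mainly on 1 library: its contrast in Zn deficiency requires that at least 86.1% of the 1933 tags lay in the library with the highest total. That library then held at least 283 TPM, and the other 2 averaged at most 22.9 TPM. In Zn excess its 8 tags were 3, 3 and 2 in the 3 libraries, and in normal supply all 7 tags came from 1 library (0.414 TPM). As the gene was under 1 TPM in the other conditions, its SE rests on the Zn deficiency contrast and the moderation across genes.

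Bra028271 had the smallest p among the falls. It stood at 2.07 TPM in Zn excess and 41.6 TPM in Zn deficiency (log2 change -3.79, SE 0.38, adjusted p 0.000303). At 51.3 TPM in normal supply and 90.7 TPM in Cd exposure it was as high as in Zn deficiency or higher, and at 1.34 TPM in Fe deficiency it was as low as in Zn excess. Bra031471, with fractional tags, was the most abundant of the 8, at 75.1 TPM in Zn excess and 1665 TPM in Zn deficiency (log2 change -4.45, SE 0.52, adjusted p 0.000826). Its levels of 1231 TPM in normal supply, 1883 in Cd exposure and 43.5 in Fe deficiency likewise put Zn excess and Fe deficiency low and the other 3 conditions high.

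**Figure D2:**
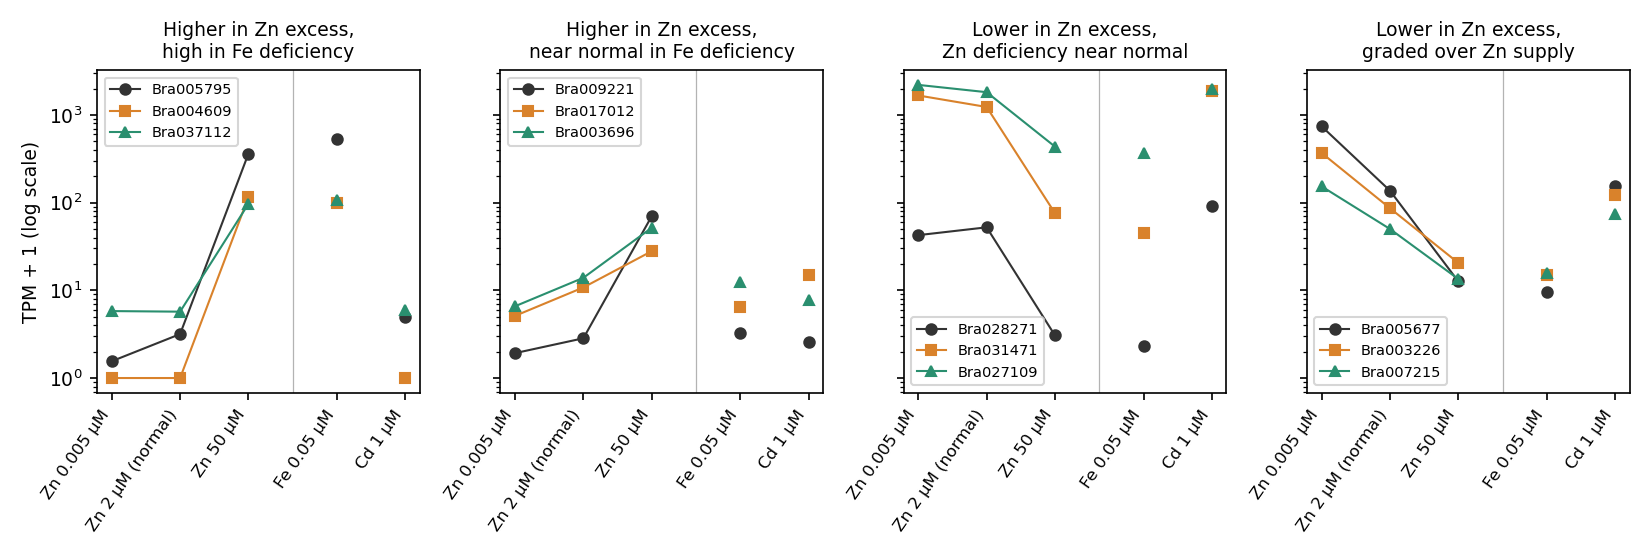
Levels of 12 named genes (vertical, TPM + 1, log scale) at 0.005, 2 and 50 µM Zn, joined by lines, and at 0.05 µM Fe and 1 µM Cd, 1 point per condition, each the mean of 3 libraries. Bra005795 and Bra004609 are high at 50 µM Zn and in Fe deficiency, Bra009221 at 50 µM Zn alone, Bra028271 is low in these 2 conditions, and Bra005677 steps down from 739 TPM at 0.005 µM Zn through 136 to 11.7 TPM at 50 µM Zn.

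Another pattern was a graded one, in which normal supply lay far from both ends. Both steps, from Zn deficiency to normal supply and from there to Zn excess, were at least 2-fold in the same direction for 5 of the 204 higher and 11 of the 372 lower genes. Of the 16, 10 passed the test between the Zn tables, 5 in each direction, where 0.656% of all genes compared passed. Choosing genes by both steps already requires a large difference between the Zn tables, so nothing is read from this number. Bra005677 was graded most steeply, at 11.7 TPM in Zn excess and 739 TPM in Zn deficiency with 136 TPM in normal supply (log2 change -5.86, SE 0.63, adjusted p 0.00055). It had 12874 tags in Zn deficiency and no fractional tags, and its level was 8.65 TPM in Fe deficiency and 152 TPM in Cd exposure. At least 35% of its tags in Zn deficiency lay in the library with the highest total. Bra003226, with fractional tags, followed at 19.6 TPM in Zn excess and 367 TPM in Zn deficiency with 85.4 TPM in normal supply (log2 change -4.16, SE 0.53, adjusted p 0.00166). Both were low in Zn excess and Fe deficiency alike, and near normal supply under Cd exposure.

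The added 1 TPM compresses the steps of low genes such as Bra009099 (0.0572 TPM in Zn deficiency, 0.864 TPM in normal supply). Ranks by steepness therefore hold for the log2(TPM + 1) scale only. On that scale Bra007240 was graded most steeply among the higher genes. It had 25.6 TPM in Zn excess and 0.579 TPM in Zn deficiency with 3.17 TPM in normal supply (log2 change 4.07, SE 0.35, adjusted p 0.000124). Its 10 tags in Zn deficiency were spread as 3, 3 and 4 over the libraries. It stood at 29.8 TPM in Fe deficiency. Bra017012 came next, at 26.9 TPM in Zn excess and 4.12 TPM in Zn deficiency with 9.79 TPM in normal supply (log2 change 2.45, SE 0.32, adjusted p 0.00204). Unlike Bra007240, it was at 5.43 TPM in Fe deficiency, below its normal supply level.

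Over whole groups, normal supply lay between the Zn tables for 166 of the 204 higher genes (81.4%) and 266 of the 372 lower genes (71.5%), against 38.9% of all genes compared. Choosing genes for a large difference widens the interval, so a share above that of all genes follows from the choice. Normal supply was nearer to Zn excess than to Zn deficiency for 42.2% of the higher genes and 67.2% of the lower genes, against 61% of all genes compared. The lower genes thus lay close to the share of all genes. Put as steps, the same placement made the step from normal supply to Zn excess the larger for 118 of the 204 higher genes (median steps 0.72 above and 0.55 below normal supply). For 122 of the 372 lower genes the excess step was the larger, and the median step was 0.48 on the excess side and 0.94 on the deficiency side. By size, 68 higher genes had a 2-fold step on the excess side only and 19 on the deficiency side only, and for the lower genes these numbers were 76 and 158. Over all genes compared, 109 were at least 2-fold above normal supply in Zn excess and 61 at least 2-fold below it in Zn deficiency. In the other direction, 116 were below it in Zn excess and 320 above it in Zn deficiency. The order of the numbers was thus the same over all genes, and no trait of the chosen genes is read from it. The steps share the normal supply table, whose error enters both with opposite sign.

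Most genes that passed the test had their larger step on the excess side in both directions. The excess step was the larger in 34 of the 38 genes that rose (medians 3.03 and 0.42) and in 24 of the 33 that fell (medians 2.07 and 0.77). A larger excess step means that normal supply was nearer to Zn deficiency, while over all genes compared it was nearer to Zn excess for 61%. The 38 genes had medians of 2.01 TPM in Zn deficiency and 3.11 TPM in normal supply. At such low levels the added 1 TPM limits the size of the deficiency step. How much of the difference between the steps comes from this was not tested. The median size of the library contrast over all genes was 20.8% of the mean in Zn excess, 26.6% in Zn deficiency and 13.2% in normal supply, and the part of this spread in which changes passed was not tested.

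**Figure D3:**
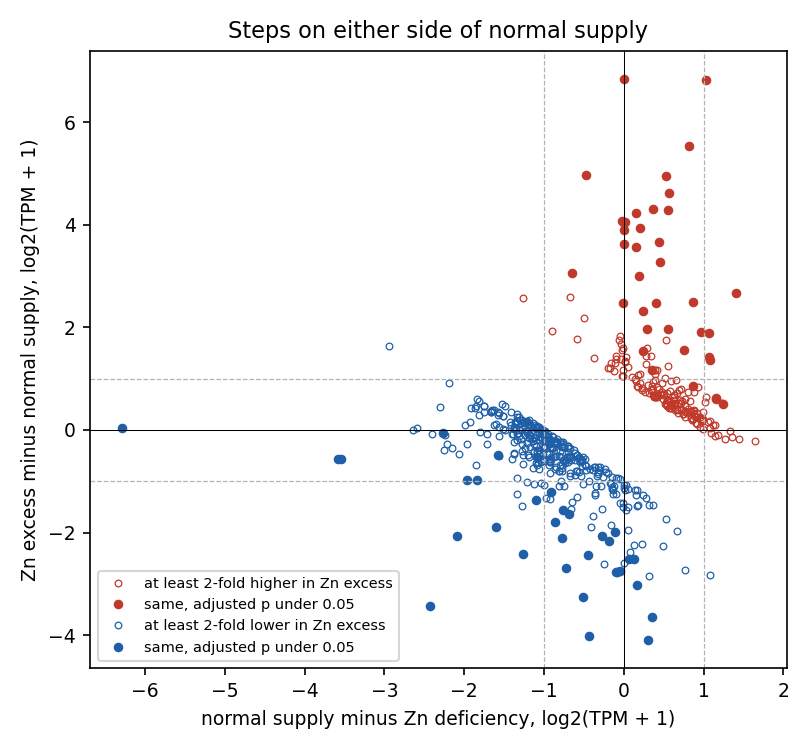
Step from normal supply to Zn excess (vertical) against the step from Zn deficiency to normal supply (horizontal), both as differences of log2(TPM + 1), for the 204 genes at least 2-fold higher (red) and the 372 at least 2-fold lower (blue) in Zn excess, 1 point per gene and filled where the adjusted p was under 0.05, with dashed lines at 2-fold. Filled red points lie along the vertical axis, where 34 of 38 genes have the larger step on the excess side, while 158 of the open and filled blue points have a 2-fold step on the deficiency side only.

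The levels in Fe deficiency and Cd exposure were then placed between the Zn tables, since neither enters the difference between the Zn tables. They do enter the SE: a condition adds its spread for a gene only where the gene reached 1 TPM there. Of the 38 genes that rose, 26 were nearer to their Zn excess level than to their Zn deficiency level in Fe deficiency (68.4%), 5 in Cd exposure and 4 in normal supply. Of the 33 that fell, 28 were nearer to Zn excess in Fe deficiency (84.8%), 12 in Cd exposure and 9 in normal supply. Across all 10821 genes these shares were 59.7%, 62.4% and 61%. The numbers for normal supply restate the step counts given above and are not a second observation. In level, 25 of the 33 genes that fell were in Zn excess within 2-fold of their Fe deficiency value, while in Zn deficiency 5 were. For the 38 genes that rose these numbers were 26 in Zn excess and 11 in Zn deficiency. Over all genes compared, 95.3% in Zn excess and 94.7% in Zn deficiency were within 2-fold of Fe deficiency. All 4 shares in the genes past the test (75.8% and 15.2% of those that fell, 68.4% and 28.9% of those that rose) lay below these. Of the 33, 23 were at least 2-fold below normal supply in Fe deficiency, where 1.32% of all genes were, and 3 at least 2-fold above. Bra004266 was 1 of these 3, at 3.96 TPM in Zn excess, 33.7 TPM in Zn deficiency, 8.72 TPM in normal supply and 18.9 TPM in Fe deficiency (log2 change -2.81, SE 0.32, adjusted p 0.000758).

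The 339 genes at least 2-fold lower in Zn excess that did not pass the test were placed the other way. Their Fe deficiency level was nearer to Zn excess for 43.1%, while that in Cd exposure was nearer for 82% and that in normal supply for 71.1%. In Cd exposure 85 of the 339 (25.1%) were at least 2-fold below normal supply, where 3% of all genes compared were, and in Fe deficiency 102 (30.1%) were at least 2-fold above it, where 3.61% of all genes were. In Fe deficiency 40 of the 339 (11.8%) were at least 2-fold below normal supply, also above the 1.32% of all genes. Of the 166 higher genes that did not pass, 61.4% were nearer to Zn excess in Fe deficiency, 56.6% in Cd exposure and 49.4% in normal supply.

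**Figure D4:**
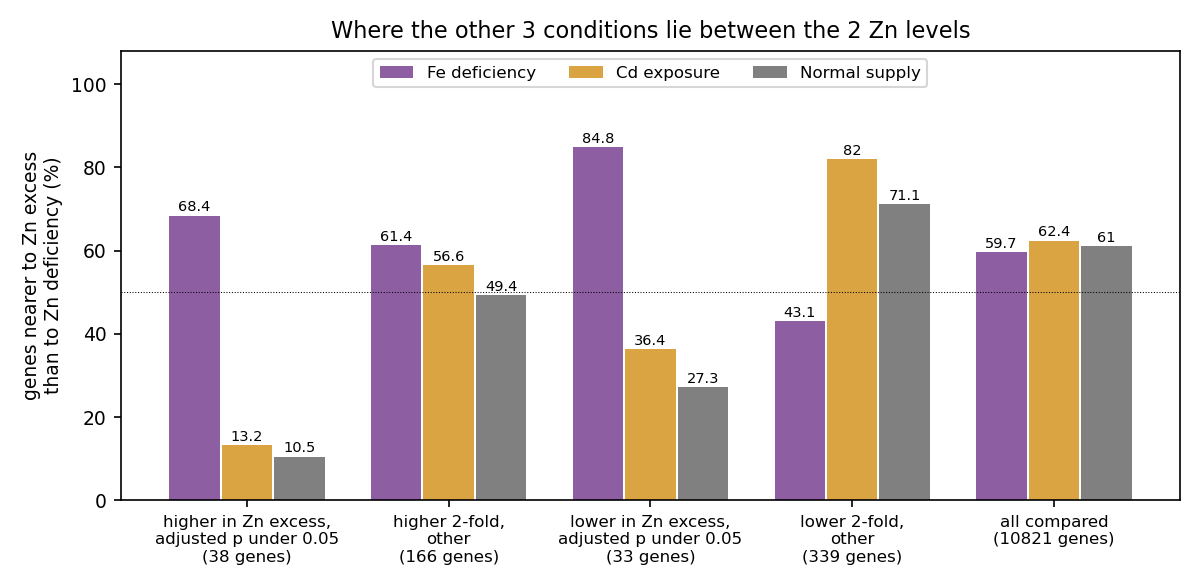
Share of genes (vertical, %) whose level in Fe deficiency, Cd exposure or normal supply was nearer on the log2(TPM + 1) scale to Zn excess than to Zn deficiency, for genes grouped by direction and by the test and for all genes compared, with a dotted line at 50%. Fe deficiency reaches 68.4% and 84.8% in the genes past the test and 43.1% in the other lower genes, where Cd exposure reaches 82%.

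Genes at least 2-fold lower in Zn excess also varied more between libraries within a condition than genes in general. The library contrast is given as a percentage of a gene's mean and is positive when the libraries with more clean tags are the higher. In normal supply the library with the lowest total weighs most, and the middle one carries 37.8% of that weight. The median contrast over the 372 lower genes was 24.6% in Zn excess and 23.3% in Zn deficiency, against 7.27% and -2.31% over all genes. In normal supply it was -21% against 0.346%. Over the 204 higher genes it was -6.06% in Zn excess and -12.8% in Zn deficiency. In size, the median contrast of the lower genes was 32.2% in Zn excess and 39.1% in Zn deficiency, against 20.8% and 26.6% over all genes. That of the higher genes was 28.8% in Zn excess and, close to all genes, 26.4% in Zn deficiency. Across genes, the change correlated with the contrast at Spearman's rho of -0.37 in Zn excess (10821 genes) and -0.38 in Zn deficiency (10813 genes). The change and the contrast come from the same libraries, and genes are not independent replicates.

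Among the 3547 genes whose contrasts were within 25% in both Zn tables, 52 passed 2-fold upward (1.47%) and 56 downward (1.58%), and 6 and 7 of them passed the test. Where either contrast exceeded 50% (2818 genes), 80 were higher (2.84%) and 180 lower (6.39%). In the first class the directions were close in number, and in the second lower genes outnumbered higher ones. Genes at 0 in a Zn table have no contrast there and are always missing from the first class. The 8 genes at 0 in Zn deficiency, all among the 38 that rose, are thus left out of its upward numbers by construction. Low genes are missing from the first class more often, since counting error alone widens their contrast. The part of single libraries in the 2-fold counts was not tested, as the libraries were deposited only as means. For 17 of the 372 lower genes more than 50% of the Zn deficiency tags must lie in 1 library (4.57%), against 0.822% of all genes.

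**Figure D5:**
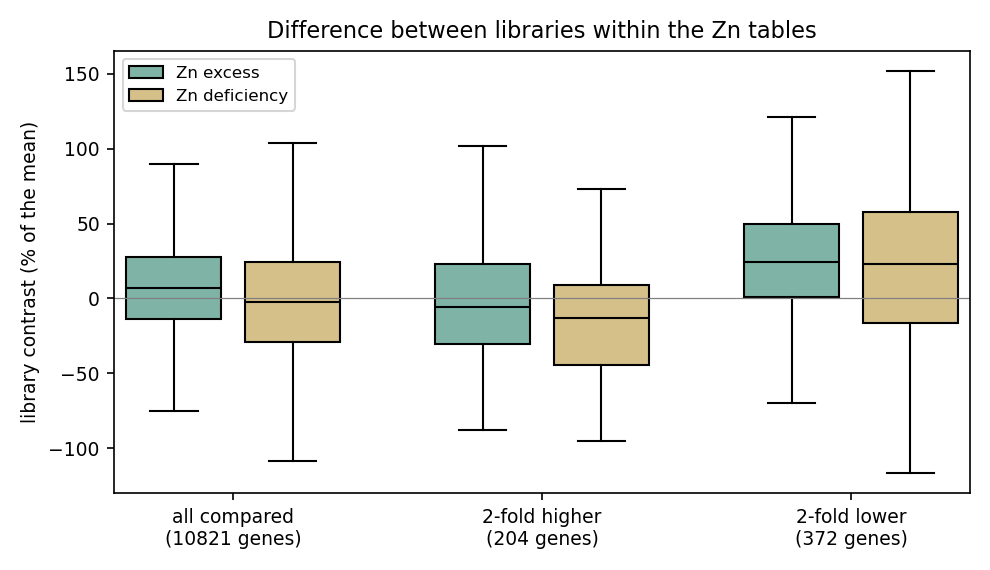
Library contrast (vertical, % of a gene's mean, positive when the libraries with more clean tags are higher) in Zn excess and Zn deficiency for all genes compared and for the genes at least 2-fold higher or lower in Zn excess. Lines in boxes are medians, boxes the quartiles and whiskers extend by at most 1.5 times the box height, and the medians of the lower genes are 24.6% and 23.3%.

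Differences were found at all levels of expression. Lower genes made up 3.05% of genes at 5 to 20 TPM, 3.74% at 20 to 100 TPM and 5.74% at 100 to 1000 TPM, and higher genes 1.65%, 2.35% and 1.96%. The 372 lower genes together held 1.76% of the TPM in genes in Zn excess and 5.78% in Zn deficiency. The 204 higher genes held 2.4% in Zn excess and 0.868% in Zn deficiency. None of the 10 most abundant genes differed 2-fold, but 10 genes are too few to compare with the shares of all genes. Their changes ran from -0.91 to 0.92, none passed the limma test, and 2 had an unadjusted p under 0.05. Of the 100 most abundant genes, 3 were at least 2-fold higher and 7 lower, against 1.89% and 3.44% of all genes compared. The limma test was passed by 4 of the 100, against 0.656% of all genes compared. The most abundant, Bra028174, stood at 15931 TPM in Zn excess and 14519 TPM in Zn deficiency (log2 change 0.13, SE 0.50).

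Bra027109 fell to 435 TPM in Zn excess, against 2199 TPM in Zn deficiency (log2 change -2.33, SE 0.42, adjusted p 0.0253), and had 1816 TPM in normal supply and 371 TPM in Fe deficiency. Some of its tags were fractions. Bra016459 stood at 923 TPM in Zn excess and 2544 TPM in Zn deficiency, with 2633 TPM in normal supply (log2 change -1.46, SE 0.40, adjusted p 0.171). The 4 most abundant genes at least 2-fold higher stood at 452 to 1397 TPM in Zn excess and 154 to 683 TPM in Zn deficiency. None passed the limma test and 3 had an unadjusted p under 0.05, as 9.07% of all genes compared did. These 4 were chosen by the same difference that the test uses, so nothing is read from the 3. With median-of-ratios size factors in place of TPM alone, 3 of the 4 were under 2-fold. The first of them, Bra021807, had 1397 TPM in Zn excess and 683 TPM in Zn deficiency with 978 TPM in normal supply (log2 change 1.03, SE 0.33, adjusted p 0.288).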

How the data were processed

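The tables are digital gene expression data from leaves, 1 table per condition. Per the file headers, the columns are gene, clean tag number and TPM. Tag numbers are deposited as estimated counts. Most are multiples of 1 tag divided by 3, as a mean of the 3 libraries that the labels describe would be, and the remainder are smaller fractions. The deposited TPM values are tags per 1000000 clean tags, and their steps are likewise those of a mean of 3 libraries. The aligner is not given in the sources used here, nor are genome build and annotation. Genes that a table does not list were set to 0.

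Library totals were recovered from genes with 1 tag in 1 library, whose TPM took 3 common values per table (94.9% of 277 such genes in Zn excess and 92.8% of 279 in Zn deficiency). With these totals, 95.4% (Zn excess) and 95.5% (Zn deficiency) of genes with whole sums of up to 12 tags could be solved for whole tags in each library, against 0.69% and 0.504% with totals moved by 0.5%. The contrast (mean tag number less the product of TPM and mean total, in matching units) was scaled to a coefficient of variation. The library with the middle total carries 6.99% of the weight of the outermost library in Zn excess and 2.48% in Zn deficiency, so its deviations are largely missed, and the totals of Zn excess differ by only 0.84%. Squared contrasts at 1 TPM or more were divided by an expression trend fitted per condition (40 bins) and averaged over the 5 conditions. R 4.3.3 with limma 3.58.1 moderated them, which gave 12.0 degrees of freedom to a gene measured in 5 conditions. P-values were Benjamini-Hochberg adjusted over all 10821 genes. The steps were tested on simulated libraries, in which genes of equal level in a condition had equal spread. With no gene changed, 0 of 10799 genes were called and 5.33% had an unadjusted p under 0.05. The labels do not say whether replicates were grown separately, so p-values measure the spread between these pools.

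Figures and tables were made with Python 3.11.15. Genes were named by size of change, abundance, p and steepness over the 3 Zn supplies, and for each the first ones in each direction are given. The members and rules were chosen with earlier results of these data known. Gene lists by function could not be used, since no identifier matched a name. Floors cover counting error only. Alternatives changed the pseudocount, the minimum level, the scaling, the threshold, the spread and the genes kept.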

Additional observations from a re-analysis of the deposited data

How the results depend on the processing

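Of 46 counts under alternatives, 22 were within 1.5 times the reported one, and counts follow as higher and lower genes. At least 2-fold were 106 and 214 with a pseudocount of 5, 347 and 601 with no minimum level, 93 and 167 with a minimum mean of 20 TPM, 33 and 62 at 4-fold, 38 and 33 when an adjusted p under 0.05 was also required, and 52 and 56 where both Zn contrasts were within 25%, a limit chosen after seeing the data. Minimum level, 4-fold, adjusted p and contrast limit keep fewer genes by construction. With normal supply between the Zn tables were 84 and 156 with a pseudocount of 5 and 75 and 107 at 20 TPM. Past the limma test were 20 and 20 at 20 TPM, 509 and 473 without adjustment, and 6 and 7 with both contrasts within 25%. Among genes without fractional tags 19 fell, and 57 fell with the spread of the 2 Zn conditions alone, where 63 of the 71 reported genes passed. The cause of the last was not tested. Size factors, which remove a shift of 0.071 in log2, left 72.6% of the 2-fold changes lower, and dividing by the sum over genes 58.3%, against 64.6%. The 33 genes chosen by the naming rule kept their direction and their side of the adjusted p of 0.05 under all 4 alternatives tried for them (132 values, of which 3, those of Bra021807, Bra013653 and Bra004275 with size factors, were 0.96, 0.95 and 0.95 and so under 2-fold). All 4 rest on the same library contrasts of the 5 conditions. The spread of the 2 Zn conditions alone was not among these 4, so they do not show how far the adjusted p-values depend on the spread. No paired analysis was possible because the tables are means without replicate numbers, so leaving out a replicate could not be done either. No outlying sample could be looked for with 1 sample per condition. In simulation 2-fold changes were mostly missed, a rate that need not hold for the real genes. The part of depth and of spread in this was not tested.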

Other observations

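Across the 10813 genes with tags in both Zn tables, the library contrasts of Zn excess and Zn deficiency correlated with each other (Spearman's rho 0.59), although the 2 tables share no library. The SEs, the adjusted p-values and the simulation take the libraries of the 2 conditions as independent, so they do not account for such a correlation. Genes are not independent replicates, and which plants or batches the libraries with the highest totals came from is not stated in the sources used here.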
